A study of Mus musculus with 4 samples.

Results

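Among the nuclei of mouse hippocampus, 576 of 32048 deposited barcodes were excitatory nuclei that carried neither the dentate granule nor the CA1 markers used here. They were chosen by their own transcripts: at least 2000 UMIs (unique molecular identifiers, 1 per captured RNA molecule), at most 5% mitochondrial UMIs, and at least 3 UMIs of Slc17a7, Slc17a6 and Sv2b together. They had no UMI of Gm10754 or Prox1, at most 1 of C1ql2, Dsp, Trpc6 and Glis3 detected, at most 1 UMI of Gad1 and Gad2, and at most 1 of Mog, Mag, Aqp4, Pdgfra and Inpp5d detected. Of the barcodes, 23509 reached 2000 UMIs, and 2448 of those passed the excitatory limits. The 576 nuclei came from 4 libraries, with 184 from WT, 71 from PS19 replicate 1, 99 from PS19 replicate 2 and 222 from TG_PS19. The rule left many nuclei close to its limits: 148 of the 576 had exactly 3 vesicular UMIs, and 193 nuclei with 2 lay just outside. Another 113 nuclei were left out by a single Gm10754 UMI and 30 by a single Prox1 UMI. Inside, 199 carried 1 of the dentate genes and 157 carried 1 of the glial genes. The working name of CA3, subicular and other excitatory neurons was only partly borne out by the markers, as set out further on, so the nuclei are described here by their leading genes.

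CA3 pyramidal neurons receive the mossy fibres of dentate granule cells and send the Schaffer collaterals to CA1, and their recurrent connections are known for associative memory. The subiculum takes the output of CA1 and carries it to cortex and subcortical targets. A dissected hippocampus also brings along some of the adjoining cortex, whose excitatory neurons are grouped by layer and by where their axons go. All of these cells load glutamate into synaptic vesicles with the transporters encoded by Slc17a7 and Slc17a6.

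The WT library came from mice without either transgene. PS19 mice (B6;C3 background) carry a mutant human tau transgene (MAPT, isoform 1N4R) driven by the prion promoter Prnp, and both PS19 libraries and the TG_PS19 library share it. TG_PS19 mice carry in addition the SORLA transgene, placed in the Rosa26 locus under a CMV/β-actin promoter element, which is not restricted to neurons. Frozen hippocampi of a group were pooled before nuclei were isolated; the number, sex and age of the animals and whether the PS19 libraries were separate pools are not given in the sources used here, beyond the series being on aged mice. With 1 library each for WT and TG_PS19, every p-value measures only the spread between the PS19 libraries, which may be technical, and assumes that the lone libraries vary as those do. In the edgeR fit over all members, the spread shared over genes had a weight of 40.6 degrees of freedom. A gene's own spread had 1, so its p-value says little about how well its own PS19 replicates agree.

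The members held 1889664 UMIs in WT, 815420 and 1191325 in the PS19 replicates and 2359296 in TG_PS19, with medians of 9632.5, 10293, 10777 and 9860.5 UMIs per nucleus. No member barcode occurred in more than 1 library, and 37 members were scored as doublets and kept; WT held 20 of them, the PS19 replicates 2 and 1, and TG_PS19 14. Summed over members, the PS19 replicates differed by more than counting error, with a chi-square of 2.21 per degree of freedom over 9972 genes. The TG_PS19 library stood apart in sex: 112 of its 222 members had Xist UMIs and no Y-linked UMIs, and 73 the reverse, whereas 160 of 184 WT members and 66 of 71 and 86 of 99 PS19 members had Y-linked UMIs only. It therefore held nuclei of both sexes and the other libraries almost only male nuclei, so sex, genotype and library cannot be told apart in the comparison of TG_PS19 with PS19. Its Y-only nuclei take sex out of that comparison, but not the library, and their cluster make-up differs from that of its Xist-only nuclei, as given further on.

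The defining transporter of the class was present in every library. Slc17a7 stood at 239 CPM (UMIs per 1000000 UMIs) in WT, 212 and 211 in the PS19 replicates and 229 in TG_PS19. Slc17a6, the second vesicular transporter, was at 40.7, 68.7, 54.6 and 41.1 CPM, and Sv2b, a synaptic vesicle protein, at 340, 262, 334 and 365 CPM, in the same order. These genes chose the members, so their levels describe the choice.

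The nuclei fell into 14 clusters, of which 4 resembled cortical excitatory neurons by markers, 1 resembled CA3 and 6 had no name. Cluster 6 (49 nuclei, led by Cntnap5c, Zbtb20, Nectin3 and Tafa1) was the only CA3-like one. It had 4 of 8 CA3 markers raised (Cpne4, Grik4, Nectin3, Rnf182) and 3 of 6 CA2 markers (Amigo2, Map3k15, Cacng5). These shares are equal, so its name rests on the rule for breaking ties, which took the list with more raised markers. Cluster 1 (98 nuclei, Atp10b, Gpc6, Pdzrn3, Ptprt), cluster 7 (40 nuclei, Sntg2, Tcerg1l, Col25a1, Otof) and cluster 14 (8 nuclei) resembled layer 2/3 intratelencephalic neurons, which project within the cortex. Cluster 2 (80 nuclei, Hs3st2, Cdh18, Slc15a2, Arhgap25) resembled layer 6 corticothalamic neurons, with raised Foxp2, Tle4, Hs3st4 and Rprm. Clusters 3 (79 nuclei, Dcn, Pde11a, Slc26a4, Wfs1), 4 (52 nuclei, Brinp3, Cobll1, Lpar1), 5 (49 nuclei, Nxph1, Cntn6, Kcnh8), 10 (21 nuclei, Ndst4, Stac, Ror1), 11 (21 nuclei, Gpr83, Rnf152) and 13 (9 nuclei, Ebf2, Zfhx3) had no name under the marker rule.

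Several clusters carried markers of cells that the class was not meant to hold. Cluster 8 (33 nuclei, Sox6, Bnc2, Plce1, Gpc5) was astrocyte-like, with 5 of 7 astrocyte markers raised, but also 4 of 6 of oligodendrocyte precursors (Pdgfra, Cspg4, Vcan, Sox6); cluster 12 (15 nuclei) was dentate granule-like, and cluster 9 (22 nuclei, Reln, Ndnf, Dach1, Trp73) was Cajal-Retzius-like, with Reln at 10990 CPM. Cajal-Retzius cells are early-born glutamatergic neurons that secrete reelin and persist in the adult hippocampus. Doublets and free RNA were not separated from whole cells of these kinds, and their part was not tested.

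The libraries supplied the clusters unevenly. Cluster 4 made up 15.8% of TG_PS19 members (35 nuclei, exact Clopper-Pearson 95% interval 11.2 to 21.2%), against 2.72% in WT (0.888 to 6.23%) and 5.63% (1.56 to 13.8%) and 8.08% (3.55 to 15.3%) in PS19. The TG_PS19 interval overlapped those of both PS19 replicates and lay above that of WT. Cluster 4 held 17 of the 73 Y-only and 10 of the 112 Xist-only nuclei of TG_PS19. Cluster 1 held 9 and 24 of them, and cluster 6 held 12 and 5. Cluster 11 made up 8.45% and 13.1% of PS19 members, 1.09% in WT and 0 of 222 in TG_PS19. The exact interval for TG_PS19 reaches 1.65%, and 3 counts of its total come to 1.35%. Cluster 8 held 16 WT nuclei and 14 TG_PS19 nuclei but 3 and 0 of the PS19 replicates, and cluster 10 held 14 WT nuclei against 2, 1 and 4. These intervals cover counting error only, and cluster membership was set from the same transcripts, so none of these shares was tested.

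**Figure D1:**
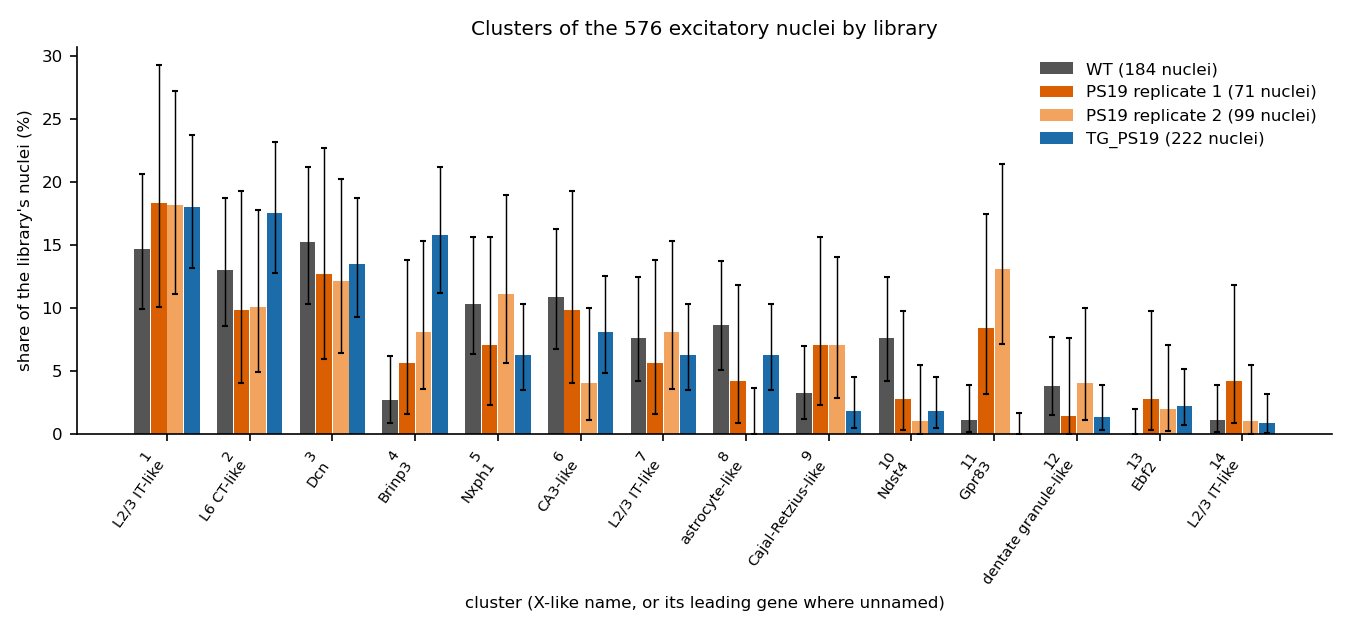
Share of each library's members (%, y axis) in each of the 14 clusters (x axis, with the name or, where unnamed, its leading gene), 1 bar per library with 95% Clopper-Pearson intervals that cover counting error only. Cluster 4 is at 15.8% in TG_PS19 and 2.72% in WT, and cluster 11 is seen in both PS19 libraries and not in TG_PS19.

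Members made up 2.09% of WT nuclei of at least 2000 UMIs (1.80 to 2.41%), 1.93% (1.51 to 2.43%) and 2.22% (1.81 to 2.69%) in the PS19 replicates and 3.38% (2.96 to 3.85%) in TG_PS19. The TG_PS19 interval lay above the other 3. Taken over the excitatory nuclei alone, the shares were 19.4% in WT, 21.9% and 26.8% in PS19 and 27.6% in TG_PS19, so TG_PS19 and PS19 replicate 2 then differed by less than counting error. With 1 library each there was no test of either share.

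Nuclei were then split by the markers named for CA3 (Cpne4, Grik4, Nectin3, Iyd) and those named for the other side (Tshz2, Fn1, Ntng1), a side needing at least 3 UMIs and at least 2 times those of the other. The CA3-marker side held 112 nuclei and the Tshz2/Fn1/Ntng1 side 330, and 134 were on neither. CA3-marker nuclei were 22.3% of members in WT (16.5 to 29.0%), 18.3% (10.1 to 29.3%) and 9.09% (4.24 to 16.6%) in the PS19 replicates and 22.1% (16.8 to 28.1%) in TG_PS19. The PS19 replicates bracketed a wider range than the distance between WT and TG_PS19, and their intervals overlapped each other. The other side took 52.7%, 54.9%, 70.7% and 55.9% of members in the same order.

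The CA3-marker side was not one kind of nucleus. Of its 112 nuclei, 49 (43.8%) were in the CA3-like cluster 6, 34 (30.4%) in the layer 6 corticothalamic-like cluster 2 and 13 (11.6%) in cluster 5. Cpne4, a copine that binds phospholipids in response to calcium, reached 1528 CPM in cluster 6 and 1419 CPM in cluster 5, with 275 CPM in cluster 2 and 30.5 CPM in cluster 1. Grik4, a kainate receptor subunit, was spread more widely, at 794 CPM in cluster 6, 580 CPM in cluster 1 and 463 CPM in cluster 4. Of Cpne4, Grik4 and Nectin3, the adhesion molecule Nectin3 was the most restricted to cluster 6, at 249 CPM against at most 98.1 CPM elsewhere. Rnf182, a CA3 marker not used for the sides, was at 169 CPM in cluster 6 and at most 57.7 CPM elsewhere. Iyd, a thyroid iodotyrosine deiodinase used as a CA3 marker, had 7 UMIs in all members together. Of these, 5 lay in cluster 6, in 5 of its 49 nuclei, too few to mark nuclei at this depth.

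Inside the CA3-like cluster 6, Cpne4 was at 1614 CPM in WT, 1001 and 1542 CPM in the PS19 replicates and 1662 CPM in TG_PS19. Grik4 was at 801, 634, 996 and 769 CPM and Nectin3 at 321, 151, 342 and 168 CPM, in the same order. For each of the 3 genes the PS19 replicates lay further apart than WT and TG_PS19. Tshz2, a teashirt zinc finger gene, was nearly absent from the cluster, with 2.8, 7.2, 0 and 3.3 CPM. With 20, 7, 4 and 18 nuclei, the cluster was too small to be compared by itself.

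On the other side, Tshz2 was widespread and Fn1 was seldom detected. Tshz2 reached 3137 CPM in cluster 7, 3172 CPM in cluster 11, 2833 CPM in cluster 1, 2424 CPM in cluster 5 and 1527 CPM in cluster 3, all against 3.22 CPM in cluster 6. Fn1, which encodes fibronectin and marks part of the subiculum, had 97 UMIs in all members, 54 of them in WT. Of the other subiculum markers, Gpr101 had no UMI in WT, and Dlk1, Nts and Gpr101 had none in PS19 replicate 1, while all 6 markers of the list had UMIs in PS19 replicate 2 and TG_PS19. Ntng1, an axon guidance netrin, was highest in the small clusters 13 (2766 CPM) and 14 (2666 CPM).

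**Figure D2:**
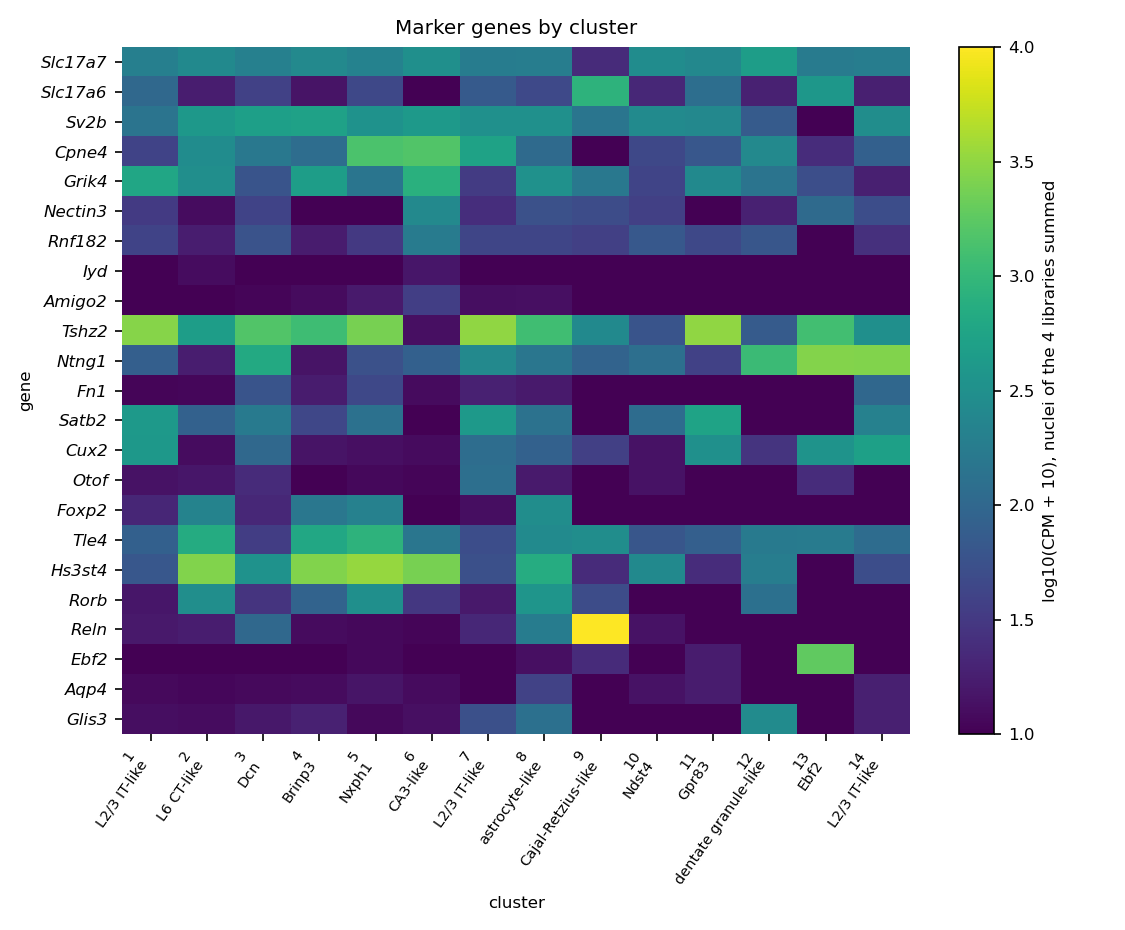
Levels of marker genes (rows) in clusters 1 to 14 (columns), summed over the 4 libraries; colour is log10 of CPM plus 10. Nectin3 and Cpne4 are high in the CA3-like cluster 6, Tshz2 is high in clusters 1, 7 and 11 and near the bottom of the scale in cluster 6, and Iyd is near the bottom in every cluster.

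Other genes followed the split, and are given as a description because the nuclei were chosen by transcripts of the same libraries. On the CA3-marker side, Zbtb20, a transcription factor of hippocampal neurons, was at 2913 CPM in WT, 2664 and 2504 in the PS19 replicates and 2573 in TG_PS19, against 239 CPM on the other side. Cntnap5c, a contactin-associated protein, was at 602, 830, 588 and 256 CPM against 35.3 CPM, and Col11a1, a fibrillar collagen, at 230, 234, 254 and 322 CPM against 9.85 CPM. Zbtb20 and Col11a1 were close to level over the libraries, and Cntnap5c was lowest in TG_PS19. On the Tshz2/Fn1/Ntng1 side, Cdh20, a cadherin, was at 332, 449, 377 and 338 CPM against 7.35 CPM on the CA3-marker side. Cux2, a homeobox factor of upper cortical layers, was at 130, 286, 211 and 181 CPM against 2.45 CPM, and was lowest in WT. Cntn5, a contactin adhesion molecule, was at 1837, 1611, 1596 and 2039 CPM against 160 CPM.

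Detection in oligodendrocytes was set beside that in members. Free RNA and expression by the oligodendrocytes themselves were not separated. With every nucleus thinned to 2000 UMIs, Cpne4 was detected in 37.5% of WT, 23.9% and 26.3% of PS19 and 31.5% of TG_PS19 members, and in 1.13 to 2.73% of oligodendrocytes (medians of 2689 to 3302 UMIs). Tshz2 was detected in 54.3%, 59.2%, 75.8% and 64.4% of members and in 1.78 to 4.23% of oligodendrocytes. Grik4 was detected in 30.4%, 36.6%, 33.3% and 40.1% of members and in 17.7 to 20.02% of oligodendrocytes. It thus set the members apart from oligodendrocytes far less sharply than Cpne4 and Tshz2 did. Nectin3 was detected in 9.24%, 2.82%, 4.04% and 3.15% of members against 6.42%, 4.88%, 3.75% and 5.26% of oligodendrocytes. Outside WT its share was thus near or below that of oligodendrocytes at that depth. Unthinned it was 21.2%, 22.5%, 14.1% and 17.1% of members against 7.19 to 9.36% of oligodendrocytes. Other neurons carried some side markers more widely than the members. Unthinned, Cpne4 was in 86.5 to 93.2% of dentate granule nuclei, Grik4 in 85.6 to 88.1% and Ntng1 in 94.2 to 97.0%. In members these were 44.4 to 56.3%, 56.0 to 73.4% and 26.6 to 37.0%. Tshz2 went the other way, at 5.04 to 9.62% of dentate granule nuclei against 63.6 to 78.8% of members.

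None of the genes that define the sides passed the test between genotypes. Over all members, log2 fold changes of PS19 against WT were -0.35 for Cpne4 (adjusted p = 0.815), 0.03 for Grik4 (0.995), -0.59 for Nectin3 (0.543), 0.36 for Tshz2 (0.844) and -1.11 for Fn1 (0.463), by edgeR's quasi-likelihood test with Benjamini-Hochberg adjustment over the 13092 genes tested. Against PS19, TG_PS19 gave 0.14, 0.27, -0.46, -0.11 and -0.88 for these genes, each missing the threshold. Sums over nuclei do not separate more nuclei of a kind from more RNA per nucleus, and this holds for every level and fold change given per library.

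The transgenes were read in these nuclei as their labels say. Human MAPT had no UMI in WT, 30 and 37 UMIs in the PS19 replicates and 53 in TG_PS19, found in 28.2%, 28.3% and 18.5% of the members of the last 3 libraries, against 3.02 to 5.53% of their oligodendrocytes. PS19 was at least 21.0-fold higher than the WT floor of 3 counts over the library, and TG_PS19 did not differ detectably from PS19 (log2 -0.49, adjusted p = 0.769, edgeR). Human SORL1 had 92 UMIs in TG_PS19, in 28.4% of members and 14.9% of oligodendrocytes, and none in the other 3 libraries, so TG_PS19 was at least 26.1-fold higher than the floor of 3 counts over both PS19 libraries. SORL1 lay between 27 and 51 CPM in each of clusters 1 to 7 of TG_PS19. Reads of the transgenes and of mouse Mapt and Sorl1 may be assigned across species. Mouse Mapt was at 322, 393, 408 and 311 scaled CPM and mouse Sorl1 at 111, 98.8, 81.5 and 84.0 scaled CPM in WT, the PS19 replicates and TG_PS19, and neither passed the test (adjusted p 0.584 to 0.973). Scaled CPM here are CPM after edgeR's TMM scaling.

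Gm43049, a long intergenic non-coding gene on chromosome 3 (140692038 to 140760704, minus strand, GRCm38), was read only in libraries that carry the PS19 transgene. It had 0 UMIs in WT, 46 and 109 in PS19 and 288 in TG_PS19, at least 48.7-fold above the WT floor in PS19 (adjusted p = 1.90e-11, edgeR). Mouse Prnp was at 52.9, 101, 82.4 and 72.3 scaled CPM, a log2 difference of 0.78 ± 0.23 (SE) between PS19 and WT that missed the threshold over all members (adjusted p = 0.208) and passed it without clusters 8, 9, 12 and 13, an alternative chosen after seeing the data (0.99, adjusted p = 0.024).

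Between PS19 and WT, 38 of 13092 genes (0.29%) passed the test, 12 higher in PS19 (0.0917%) and 26 lower (0.199%); 841 had an unadjusted p under 0.05. DESeq2 called none, with 58 at an unadjusted p under 0.05. Some of the largest changes lay in small clusters. Ebf2, an early B-cell factor gene, was at 1.07 scaled CPM in WT, 31.3 and 39.9 in PS19 and 26.9 in TG_PS19 (log2 4.97 ± 0.61, adjusted p = 1.59e-06), but 97.0% of its UMIs lay in the 9 nuclei of cluster 13. Its UMIs came from 2 nuclei in WT, 2 and 3 in PS19 and 6 in TG_PS19.

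Reln, which encodes the secreted protein reelin, was at 137 scaled CPM in WT, 289 and 249 in PS19 and 88.0 in TG_PS19, with WT and TG_PS19 both below the PS19 pair. It rose in PS19 (log2 0.97 ± 0.20, adjusted p = 0.0117) and fell in TG_PS19 against PS19 (log2 -1.61, adjusted p = 3.18e-06). Cajal-Retzius-like cluster 9 held 82.7% of its UMIs, and supplied 6 nuclei in WT, 5 and 7 in PS19 and 4 in TG_PS19. Without clusters 8, 9, 12 and 13, both differences changed sign, to -2.58 and 1.55. Dach1, a dachshund transcription factor, had 67.7% of its UMIs in cluster 9 and changed sign in the same way, from 1.21 to -2.73 in PS19 and from -1.38 to 1.92 in TG_PS19. Ndnf, a secreted neuronal factor with 79.7% of its UMIs in cluster 9, was at 36.9, 63.9, 60.3 and 19.8 scaled CPM and fell in TG_PS19 (log2 -1.64, adjusted p = 4.21e-04), and was 1.62 without these clusters.

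Many UMIs of the genes lower in PS19 lay in a few small clusters. Of the 26, 12 (46.2%) had more than 30% of their UMIs in clusters 8, 9, 12 and 13, against 2.70% of all genes tested. Bnc2, a zinc finger gene, had 65 UMIs in WT, 0 and 1 in PS19 and 2 in TG_PS19, with 92.6% of them in the astrocyte-like cluster 8 (log2 -5.91, adjusted p = 5.49e-06). Plce1, a phospholipase C, was at 51.8, 12.1, 12.7 and 17.1 scaled CPM (log2 -2.05, adjusted p = 6.67e-04), and without the 4 clusters its difference was 1.06. Cluster 8 supplied 16, 3, 0 and 14 nuclei in WT, the PS19 replicates and TG_PS19, and the members scored as doublets numbered 20, 2, 1 and 14. Cluster 8 was not left out alone, and its part and that of doublets in these results was not tested.

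Other differences were seen inside the larger clusters too. Pisd, which makes phosphatidylethanolamine in mitochondria, was at 113 scaled CPM in WT, 253 and 201 in PS19 and 277 in TG_PS19 and rose in PS19 (log2 1.00 ± 0.21, adjusted p = 0.0117). Its WT level was the lowest of the 4 libraries in 6 of the 7 clusters 1 to 7, among them cluster 1 (110, 276, 228 and 266 CPM), cluster 2 (137, 320, 308 and 382 CPM) and the CA3-like cluster 6 (59.7, 202, 131 and 168 CPM). The exception was cluster 7, at 126, 227, 112 and 228 CPM. Its near-identical copy Pisd-ps2 rose alike (72.7, 141, 147 and 172 scaled CPM, log2 0.99, adjusted p = 0.0181), and reads cannot be told apart between them with certainty.

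Slit2, an axon guidance ligand, fell in PS19, from 188 scaled CPM in WT to 96.4 and 94.2, with 130 in TG_PS19 (log2 -0.98 ± 0.20, adjusted p = 0.0107). Both PS19 replicates were below WT in cluster 2 (234 CPM in WT, 38.4 and 35.1 CPM in PS19), cluster 3 (283, 97.9 and 83.3 CPM) and cluster 6 (418, 259 and 175 CPM), but not in clusters 1 and 4, where 1 replicate was above WT. In the PS19 replicates, 3 counts come to 38.4 and 26.4 CPM in cluster 2 and to 24.5 and 16.7 CPM in cluster 3. Fras1, an extracellular matrix protein, fell as well (119, 50.6, 53.5 and 65.1 scaled CPM, log2 -1.18, adjusted p = 0.0038), and in cluster 3 stood at 153, 24.5, 27.8 and 87.9 CPM. Ror1, a Wnt5a receptor, was at 72.7, 16.9, 11.9 and 34.6 scaled CPM (log2 -2.37 ± 0.30, adjusted p = 3.69e-06), and is one of the genes that define cluster 10, of which WT supplied 14 of 21 nuclei. Ptn, the growth factor pleiotrophin, was at 223, 117, 67.9 and 117 scaled CPM (log2 -1.30 ± 0.21, adjusted p = 6.67e-04), and WT was the highest library in clusters 1 to 7 except clusters 3 and 7.

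Cux2, the upper-layer homeobox gene, was among those that rose. It was at 70.5 scaled CPM in WT, 160 and 149 in PS19 and 109 in TG_PS19 (log2 1.13 ± 0.21, adjusted p = 0.0051), and within cluster 1 at 329, 428, 420 and 392 CPM. Oprd1, the delta opioid receptor, was at 14.4, 39.8, 49.2 and 37.3 scaled CPM (log2 1.64 ± 0.33, adjusted p = 0.0111) and in cluster 1 at 39.4, 102, 77.7 and 62.8 CPM. Pparg, a lipid-sensing nuclear receptor, was at 27.2, 72.3, 66.2 and 48.5 scaled CPM (log2 1.34 ± 0.27, adjusted p = 0.0107), and in cluster 3 at 77.7, 245, 167 and 151 CPM. For each of these, both PS19 values were above the WT value, over all members and within the cluster given. Counting error within the clusters was not set against these differences. Cux2 was also raised in clusters 11 and 13. Cluster 11 held 2 WT nuclei against 6 and 13 of the PS19 replicates, and cluster 13 held 0 against 2 and 2. The part of cluster 11 in the rise of Cux2 was not tested apart.

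**Figure D3:**
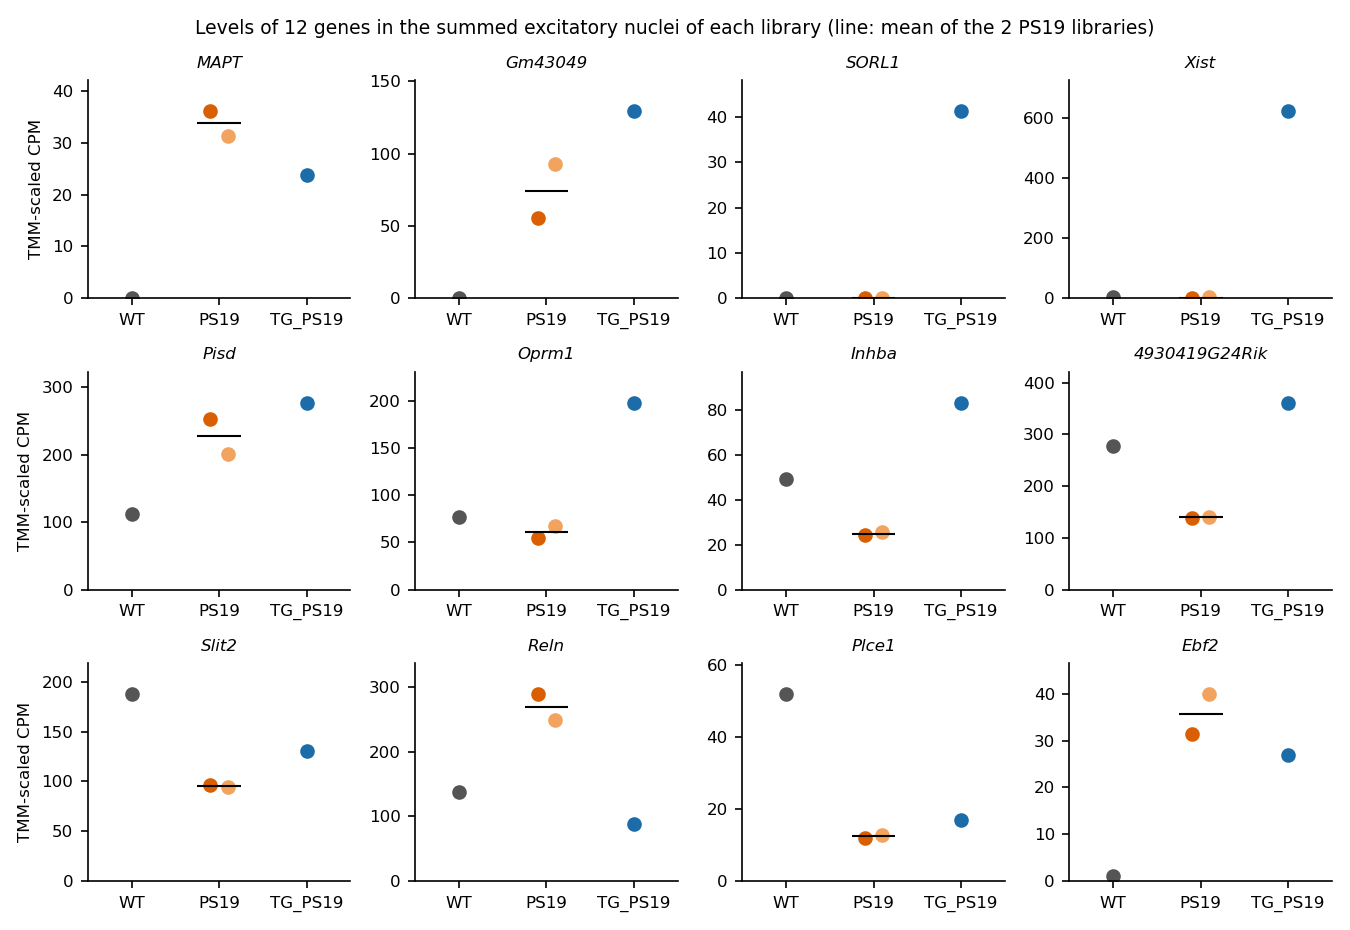
Scaled CPM (linear y axis from 0) of 12 genes in the summed members of WT, PS19 replicates 1 and 2 and TG_PS19, 1 point per library, with a line at the PS19 mean. Reln is higher in both PS19 libraries than in WT and TG_PS19, Plce1 and Slit2 are highest in WT, and Oprm1 and Inhba are highest in TG_PS19.

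Between TG_PS19 and PS19, 169 of 13092 genes (1.29%) passed the test, 151 higher in TG_PS19 (1.15%) and 18 lower (0.137%), with 1165 at an unadjusted p under 0.05. DESeq2 called none, with 104 at an unadjusted p under 0.05. The PS19 libraries serve both comparisons, so the 2 sets of values are not independent of each other. Xist (7, 0, 4 and 1385 UMIs), Tsix, which overlaps it, and 4 Y-linked genes, among them Uty and Eif2s3y, passed with the mixed sex of the TG_PS19 library.

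Oprm1, the mu opioid receptor (chromosome 10, 6758506 to 7038198, GRCm38), was at 76.9 scaled CPM in WT, 54.2 and 67.1 in PS19 and 198 in TG_PS19, and rose in TG_PS19 (log2 1.69 ± 0.20, adjusted p = 8.98e-07). Its UMIs were spread over 59, 15, 26 and 115 nuclei. It is a leading gene of cluster 2, which made up 13.0% of members in WT, 9.86% and 10.1% in PS19 and 17.6% in TG_PS19, and with equal cluster make-up its difference was 0.88 and missed the threshold (adjusted p = 0.374). TG_PS19 was the highest library in 6 of the 7 clusters 1 to 7, all but cluster 3, among them cluster 2 (252, 320, 264 and 467 CPM), cluster 4 (118, 168, 264 and 435 CPM) and cluster 7 (170, 32.4, 150 and 312 CPM). Some of these ranks rest on few counts. A total of 3 counts comes to 97.2 CPM in cluster 7 of PS19 replicate 1 (4 nuclei). It comes to 88.5 CPM in cluster 4 of WT (5 nuclei) and to 9.85 CPM in cluster 6 of TG_PS19. In the CA3-like cluster 6 Oprm1 was low in all libraries (2.84, 0, 0 and 19.7 CPM). A larger part of the Y-only than of the Xist-only TG_PS19 nuclei lay in cluster 4, and this was not separated from sex. Among Y-only TG_PS19 nuclei the difference was 1.58 (adjusted p = 0.006).

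Inhba, the activin A subunit that neuronal activity induces, was at 49.2, 24.1, 25.5 and 83.1 scaled CPM and rose in TG_PS19 against PS19 (log2 1.74 ± 0.26, adjusted p = 4.21e-05). WT lay between, and its difference from PS19 missed the threshold (log2 -0.98, adjusted p = 0.166). In cluster 6 Inhba was at 48.3, 64.8, 29.1 and 125 CPM, and in cluster 2 at 73.3, 38.4, 35.1 and 100 CPM, with TG_PS19 the highest in both. Among Y-only nuclei the difference was 1.91 (adjusted p = 0.008).

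The lncRNA 4930419G24Rik (chromosome 3, 33024777 to 33088607, GRCm38) fell in PS19 and rose in TG_PS19. It was at 278 scaled CPM in WT, 139 and 141 in PS19 and 362 in TG_PS19, with differences of -0.99 (adjusted p = 0.0051) and 1.37 (adjusted p = 8.61e-06). Cluster 3 (555, 310, 361 and 720 CPM) and cluster 5 (295, 82.8, 116 and 400 CPM) had the same order of groups, and cluster 6 did not (39.8, 151, 109 and 82.1 CPM). It lies antisense to other annotation, and strand use in the counting is not given in the sources used here, so its reads are uncertain; the same holds for Gm10848 and Gm31356, which fell in PS19. Wdr17, a WD-repeat protein gene, was at 203, 187, 147 and 406 scaled CPM and rose in TG_PS19 (log2 1.29 ± 0.19, adjusted p = 3.11e-05), but was not highest there in clusters 1, 4, 5 and 7. The lncRNA 4930445B16Rik rose too (94.6, 82.0, 104 and 230 scaled CPM, log2 1.30, adjusted p = 5.66e-05), as it did in cluster 1, where it was at 307, 356, 301 and 588 CPM.

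Among genes that fell in TG_PS19, Ptchd4, a patched-domain protein gene, was at 159, 216, 199 and 111 scaled CPM (log2 -0.90 ± 0.20, adjusted p = 0.0091). TG_PS19 was the lowest library in clusters 1, 2, 3 and 7, but not in clusters 4, 5 and 6. Ndst4, a heparan sulfate sulfotransferase, was at 146, 137, 37.4 and 25.6 scaled CPM (log2 -1.69, adjusted p = 0.0062), and PS19 replicate 2 was far closer to TG_PS19 than to PS19 replicate 1. It is a leading gene of cluster 10, which held 14, 2, 1 and 4 nuclei in the same order. In PS19 replicate 1, 1 nucleus held most of its UMIs on the CA3-marker side, as given further on. The part of that nucleus and of cluster 10 was not tested.

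**Figure D4:**
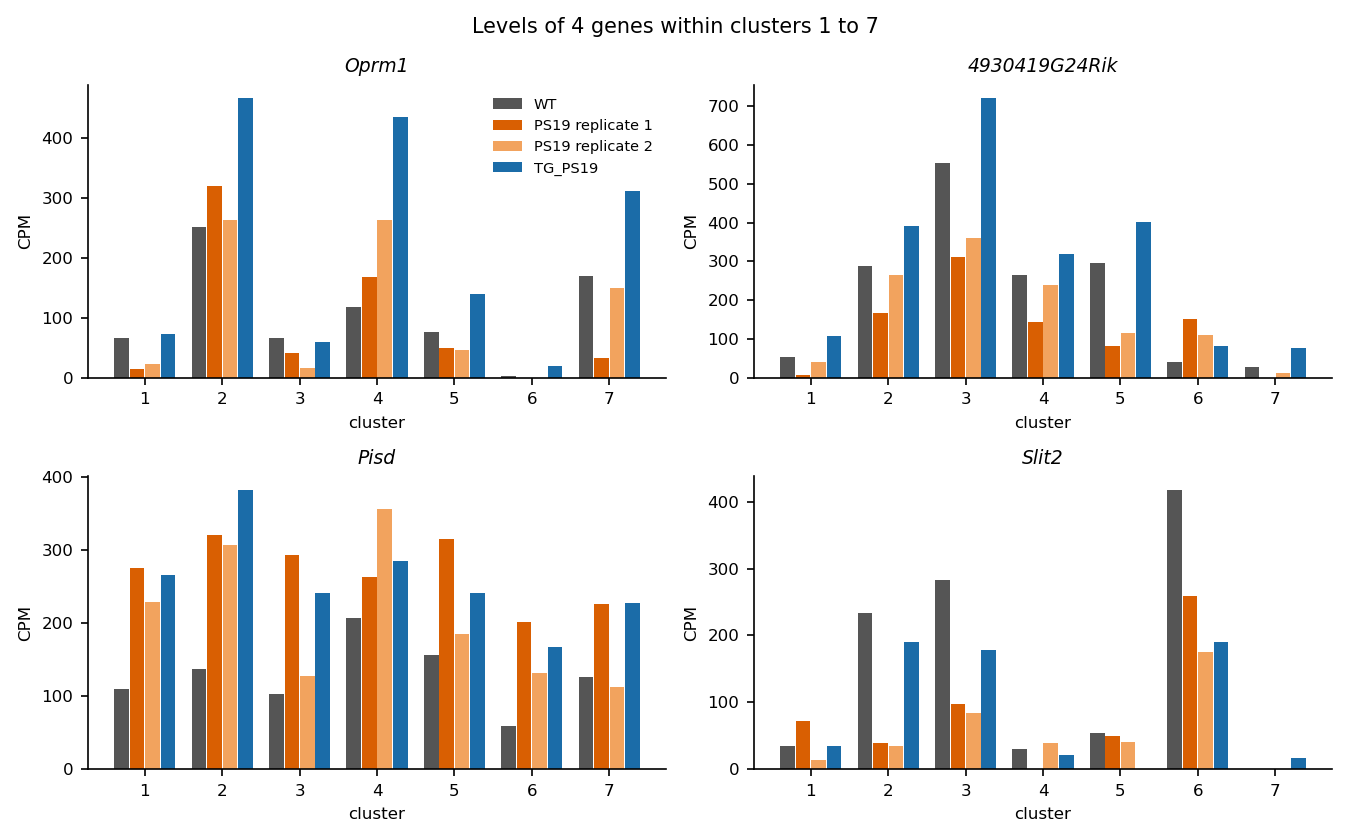
Levels (CPM, bars from 0) of Oprm1, 4930419G24Rik, Pisd and Slit2 inside clusters 1 to 7, 1 bar per library with no error shown. WT has the lowest Pisd level in each of these clusters but cluster 7, and TG_PS19 has the highest Oprm1 level in each but cluster 3. Some bars rest on few counts.

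The counts were repeated with other sets of nuclei. Without clusters 8, 9, 12 and 13, 60 genes passed between PS19 and WT, 24 of them among the 38, and 150 of the 169 passed between TG_PS19 and PS19. With the same number of nuclei of each cluster drawn from every library (46 per library, also chosen after seeing the data), 2 and 11 genes passed, of which 1 and 9 were among the calls over all members; Gm43049 remained in the first and 4930445B16Rik in the second. Inhba was then at 1.23 (0.456), Pisd at 0.89 (0.953) and Slit2 at -1.17 (0.289), all in the same direction. That alternative changes the cluster make-up and the number of nuclei at once, and their parts were not tested apart.

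A large part of the genes higher in TG_PS19 was not protein coding: 104 of 151 (68.9%), against 16.7% of all genes tested, with 44 protein coding. Leaving out mitochondrial genes, Malat1, Xist, Tsix, Meg3, Snhg11 and Gm43049, non-coding genes took 6.55% of WT members' UMIs, 6.30% and 6.55% in PS19 and 7.69% in TG_PS19. The TG_PS19 share was above the other 3, by more than they differed among themselves, and highest in each of clusters 1 to 7. Its Y-only nuclei were at 7.39% and its Xist-only nuclei at 7.88%. The same order appeared in dentate granule nuclei (6.66%, 6.32%, 6.55% and 7.57%), CA1 nuclei (6.84%, 6.54%, 6.83% and 8.09%) and oligodendrocytes (6.99%, 6.53%, 6.78% and 7.53%), so the members shared it with the other classes of that library. Its part in the non-coding calls was not tested.

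**Figure D5:**
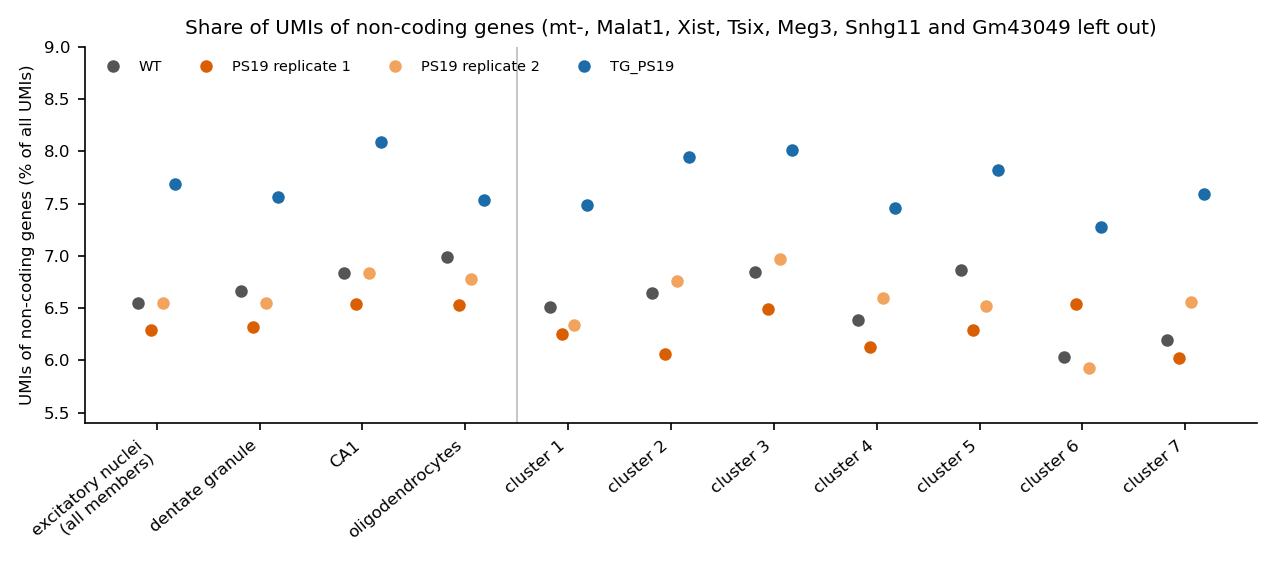
UMIs of non-coding genes as a per cent of all UMIs, for members, dentate granule nuclei, CA1 nuclei, oligodendrocytes and clusters 1 to 7, 1 point per library; the y axis does not start at 0. TG_PS19 is the highest point of each column, at 7.69% in members against 6.30 to 6.55% in the other libraries.

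Gene lists of neuronal function held 1 call in all, and with 0.29% and 1.29% of all genes called, lists of 7 to 28 genes could be without a call for their size alone. Glutamate receptors and their auxiliary subunits (28 tested) had no call in either comparison, with medians of -0.06 (PS19 against WT) and 0.24 (TG_PS19 against PS19) on the log2 scale, beside medians over all genes of 0.00417 and -0.0115. Unadjusted p under 0.05 was met by 4 and 5 of the 28 (14.3% and 17.9%), against 6.42% and 8.90% of all genes tested. Neto2, a kainate receptor auxiliary subunit, was at 88.2, 53.0, 66.2 and 101 scaled CPM (0.75 in TG_PS19 against PS19, adjusted p = 0.0804), and Grik1, a kainate receptor subunit, at 94.6, 32.5, 65.4 and 61.5 scaled CPM (-0.90 in PS19 against WT, adjusted p = 0.150). In both, PS19 replicate 1 was the lowest library. Grik1 is a leading gene of cluster 5, which made up 10.3% of members in WT, 7.04% and 11.1% in PS19 and 6.31% in TG_PS19. The part of that cluster was not tested.

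The mossy fibre synapse organisers, of which CA3 is the target, had no call among 12 tested (medians -0.01 and 0.05). Kirrel3, an adhesion molecule of that synapse, was at 644, 377, 512 and 623 scaled CPM, with both PS19 replicates below WT and TG_PS19 (-0.53, adjusted p = 0.454, and 0.48, adjusted p = 0.344). These levels are over all members, not over CA3-like nuclei. Kirrel3 is a leading gene of the unnamed cluster 3, of whose 79 nuclei 2 were on the CA3-marker side. GABA-A receptor subunits (12 tested), presynaptic release genes (22), potassium and HCN channels (26) and sodium and calcium channels (18) had no call in either comparison. Among them Kcnt2, a sodium-activated potassium channel, stood at 224, 134, 155 and 198 scaled CPM (-0.63, adjusted p = 0.230).

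The activity-regulated genes (17 tested) had 1 call, Inhba in TG_PS19, while 5 and 8 (29.4% and 47.1%) had an unadjusted p under 0.05, against 6.42% and 8.90% of all genes tested, and the medians were -0.20 and -0.01. Their members did not move one way: Arc, an immediate early gene of synapses, was at 23.0, 33.7, 21.2 and 11.7 scaled CPM, lowest in TG_PS19 (-1.19, adjusted p = 0.176), where Inhba was highest. Chaperones (15 tested), the unfolded protein and integrated stress response (12), oxidative phosphorylation (28), endosomal sorting and retromer (21), tau, APP and tau kinases (28), lysosome and autophagy (22) and interferon and antigen presentation (7) had no call in either comparison. Ctsd, a lysosomal protease, was at 23.5, 39.8, 23.8 and 13.9 scaled CPM (-1.14 in TG_PS19 against PS19, adjusted p = 0.159). In simulated data of this size, 29 of 67 genes changed 2-fold and 66 of 67 changed 4-fold were recovered in PS19 against WT. There 10 unchanged genes were called as well. Shifts smaller than 2-fold were thus mostly below detection in that comparison, the only 1 of the 2 simulated.

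Tested within the sides, the CA3-marker nuclei gave 18 calls of 7346 genes (0.245%) between PS19 and WT, 10 higher (0.136%) and 8 lower (0.109%), and 43 (0.585%) between TG_PS19 and PS19, 38 higher (0.517%) and 5 lower (0.0681%). Arhgap6 had 58 UMIs in WT, 2 and 1 in PS19 and 40 in TG_PS19 (log2 -3.86 in PS19), and Shisa9, an AMPA receptor auxiliary protein, had 108, 11, 13 and 156 (log2 -1.81 in PS19 against WT and 2.21 in TG_PS19 against PS19). Tmem132d had 76, 2, 7 and 134 UMIs (log2 -2.70 and 3.39), where the side's totals were 564745, 221809, 212473 and 634005 UMIs. In these 3 genes, picked after their values were seen, both PS19 replicates were below WT and TG_PS19; the layer 6-like cluster 2 supplied 13, 1, 3 and 17 of the side's nuclei in the same order, and its part was not tested. MAPT and SORL1 missed the threshold on this side (adjusted p 0.844 and 0.275). The Tshz2/Fn1/Ntng1 side gave 61 calls of 11025 (0.553%) between PS19 and WT, 15 higher (0.136%) and 46 lower (0.417%). Between TG_PS19 and PS19 it gave 116 (1.05%), 106 higher (0.961%) and 10 lower (0.0907%).

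Whether the sides differed in their response was tested with the library as a block. Of 10445 genes, 19 (0.182%) differed for PS19 against WT and 16 (0.153%) for TG_PS19 against PS19, and for some of them 1 nucleus held most of a library's UMIs. Ndst4 had 62 UMIs on the CA3-marker side in PS19 replicate 1, of which 56 were in 1 nucleus. Nxph1, a neurexin ligand, had 50 UMIs there in PS19 replicate 2, all in 1 nucleus. Kcnc2, a fast potassium channel, was spread more widely there, over 24, 9, 9 and 21 nuclei.

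Against dentate granule nuclei (726), the response of the members differed at 59 of 14391 genes (0.41%) for PS19 against WT and 45 (0.313%) for TG_PS19 against PS19. Htr2c, the serotonin 2C receptor, had 457 UMIs in WT members, 96 and 184 in PS19 and 303 in TG_PS19, and 28, 11, 98 and 67 in dentate granule nuclei. Mgat4c, a glycosyltransferase, had 2691, 999, 2064 and 2958 UMIs in members and 116, 17, 22 and 146 in dentate granule nuclei, and its dentate counts were lowest in both PS19 replicates. These UMIs are not scaled to the totals, which were 1889664, 815420, 1191325 and 2359296 in members. In dentate granule nuclei the totals were 2502138, 1203685, 1520827 and 2600800. Raw counts alone thus do not rank the libraries. Against CA1 nuclei (522) no gene of 14234 differed in either comparison by edgeR (0%), with 496 and 537 at an unadjusted p under 0.05; with RLE scaling 1 gene differed for TG_PS19 against PS19.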

How the data were processed

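Nuclei of frozen, pooled hippocampus were profiled with the 10x Genomics 3′ v3.1 kit in 4 libraries (WT 1, PS19 2, TG_PS19 1). The deposited values are raw UMI counts per gene and barcode; per the submitters' processing notes they were made with Cell Ranger 7.1.0 on GRCm38. Whether intronic reads or strand entered the counting is not given in the sources used here. Members were selected by the marker rule given in the results, summed per library, and tested with edgeR 4.0.16 (filterByExpr, TMM, quasi-likelihood F test with 1 residual degree of freedom, Benjamini-Hochberg at 0.05) in R 4.3.3 with limma 3.58.1; DESeq2 1.42.0 was an alternative. Dentate granule nuclei met the same limits but had Prox1 and at least 2 of the dentate genes, CA1 nuclei had at least 2 Gm10754 UMIs, and oligodendrocytes had Mog and Mag and no Slc17a7. Differences between nucleus classes were interaction terms with the library as a block. The sums came to 815420 to 2359296 UMIs per library, and shares carry exact Clopper-Pearson 95% intervals for counting error only. The fit was tested on simulated data.

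Members were clustered with scanpy 1.11.5 and leidenalg 0.10.2 (1500 variable genes, 20 components, 15 neighbours, resolution 0.8). A cluster was called like a type when at least 3 of that type's markers were raised, with at least 1 among its top 10 genes by fold; that last condition and the way of breaking ties were added after seeing the data. Doublets were scored with Scrublet in scanpy and kept, as were clusters resembling other cells. Named genes are the 10 of lowest p each way in each comparison with a mean of at least 5 CPM, called members of the gene lists, the 3 members of largest change per list, the 5 of lowest p per interaction, the 5 leading genes per cluster, the 10 of largest fold each way between the sides, and the transgenes and rule genes. The members, markers and lists were chosen with earlier results of these data known. Gene positions and classes come from GENCODE M21, which matched 54349 of 55403 features. Some genes that the rule names are not reported here.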

Additional observations from a re-analysis of the deposited data

Results flagged for a closer look

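The genes below were picked out because a test of the difference itself, with the library as a block, found their change to differ between groups of nuclei (edgeR, 5 of lowest p per test). Values are the log2 change in the first group of nuclei minus that in the second. Fitted values against a group at 0 UMIs are no bounds. UMIs below are raw, and totals differed between libraries, so raw counts do not rank the libraries. In WT, the PS19 replicates and TG_PS19 the totals were 564745, 221809, 212473 and 634005 on the CA3-marker side. They were 948793, 416625, 813400 and 1273897 on the other side. Members held 1889664, 815420, 1191325 and 2359296, and dentate granule nuclei 2502138, 1203685, 1520827 and 2600800.

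Between the CA3-marker and the Tshz2/Fn1/Ntng1 side, the change from WT to PS19 differed by 7.11 for Nxph1, 5.63 for Ndst4, 2.56 for Il1rapl2, 5.73 for Kctd8 and 8.51 for Wls. On the CA3-marker side Nxph1 had 5 UMIs in WT, 33 and 50 in the PS19 replicates and 49 in TG_PS19, and 24 and 50 of the PS19 UMIs lay in 1 nucleus each. Ndst4 had 7, 62, 0 and 5, with 56 of the 62 in 1 nucleus, and Wls, which carries Wnt proteins to the membrane, had 0, 19, 0 and 3, with 17 of the 19 in 1 nucleus. Il1rapl2, a synaptic receptor accessory protein, had 135, 194, 223 and 402 UMIs, of which 1 nucleus in each library held 49, 96, 108 and 119. Kctd8, a GABA-B receptor auxiliary subunit, had 1, 10, 7 and 13 on the CA3-marker side and 91, 9, 39 and 52 on the other.

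For the change from PS19 to TG_PS19, the sides differed by -8.03 for Reln, 5.86 for Gm34544, -3.01 for Kcnc2, -5.84 for D5Ertd615e and -2.27 for Il1rapl2. Reln had 83, 26, 0 and 1 UMIs on the CA3-marker side and 50, 4, 4 and 102 on the other. On the CA3-marker side 57 of the 83 WT UMIs and all 26 of PS19 replicate 1 were in 1 nucleus each. Gm34544 had 72 UMIs there in TG_PS19, 32 of them in 1 nucleus, and D5Ertd615e had 43 in PS19 replicate 1, 35 of them in 1 nucleus. Kcnc2, a fast potassium channel, had 241, 63, 143 and 124 UMIs on the CA3-marker side and 71, 18, 20 and 137 on the other.

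Between members and dentate granule nuclei, the change from WT to PS19 differed by -5.75 for Nxph1, -2.61 for Htr2c, -2.1 for Ror1, 1.71 for Mgat4c and -1.64 for Gm44257. Nxph1 had 125, 39, 58 and 113 UMIs in members and 2, 46, 44 and 15 in dentate granule nuclei, and Ror1 had 136, 14, 14 and 77 against 233, 78, 127 and 248. For the change from PS19 to TG_PS19, the differences were 3.56 for Mir670hg, -2.2 for Mgat4c, -2.9 for Dach1, -1.79 for Chrm3 and 1.51 for Il1rapl2. Chrm3, the muscarinic M3 receptor, had 1641, 680, 871 and 1643 UMIs in members against 112, 40, 12 and 157. Mir670hg had 153, 59, 105 and 217 against 53, 95, 68 and 15.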

How the results depend on the processing

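Counts of genes called moved with most settings, while directions mostly held. For PS19 against WT (38 calls) they were 69 with library totals, 61 with no low-count filter, 10 at 10 CPM in 2 libraries, 25 with adjusted residual degrees of freedom, 7 from 1000 UMIs, 14 from 4000 UMIs, 8 after thinning, 6 with Y-only TG_PS19 nuclei, 60 without the 4 clusters and 2 with equal cluster make-up. The Y-only setting left the WT and PS19 nuclei as they were. The median absolute log2 change of the 38 genes was 1.46 with and without it. For TG_PS19 against PS19 (169 calls) they were 74 at 10 CPM, 93 with adjusted residual degrees of freedom, 67 from 1000 UMIs, 7 after thinning, 59 with Y-only nuclei (48 shared) and 11 with equal make-up. DESeq2 called 0 in both, 0 and 1 on the CA3-marker side, 0 and 1 on the other side, 1 and 0 for the difference between sides and 0 and 0 against dentate granule nuclei. On the CA3-marker side, library totals gave 28 in TG_PS19 against PS19. Sides set by the number of markers detected gave 4 and 1 calls on the Tshz2/Fn1/Ntng1 side and 9 and 0 between sides. Against CA1, RLE scaling gave 1 for TG_PS19.

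The share of members moved to 1.51% in WT and 2.43% in TG_PS19 from 1000 UMIs, and to 4.76, 4.52, 4.34 and 7.45% (WT, PS19 replicates, TG_PS19) from 4000 UMIs. It was 0.681, 0.572, 0.627 and 0.884% after thinning, 1.56, 1.20, 1.68 and 2.48% with no glial gene, 19.4, 21.9, 26.8 and 27.6% of excitatory nuclei, and 2.77, 2.64 and 4.10% (WT, PS19 replicate 1, TG_PS19) with 1 Gm10754 or Prox1 UMI allowed. TG_PS19 stayed the highest library under each of these. Y-only nuclei gave 4.09% in TG_PS19. The CA3-marker share was 4.76, 17.9 and 12.1% (PS19 replicates, TG_PS19) after thinning, 28.8% in Y-only TG_PS19 nuclei and 32.4, 23.2 and 41.4% by markers detected.

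Signs reversed for Reln in PS19 (-0.30 thinned, -2.58 without the 4 clusters) and TG_PS19 (1.55, and 2.40 with equal make-up), Ndnf in TG_PS19 (0.33 thinned, 1.62 without the 4 clusters), Dach1 in PS19 (-2.73, and -4.36 with equal make-up) and TG_PS19 (1.92 and 3.01), and Plce1 in PS19 (1.06 and 1.09). With equal make-up 4930555F03Rik was -1.13 and Ptchd4 0.25 in TG_PS19. The cause was not tested beyond these alternatives.

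Leaving out a PS19 replicate left no residual degrees of freedom, so only values could be given: 40 of 43 named changes moved by less than the spread without replicate 1 and 37 without replicate 2. No paired analysis was possible because WT and TG_PS19 have 1 library each. The depth limits were 2-fold changes, of which 29 of 67 simulated ones were recovered in PS19 against WT, and 4 to 20 nuclei per library in the CA3-like cluster.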
